A study of Mus musculus with 3 samples.

Results

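The proteasome is the cell's main machine for breaking down proteins. The genes described here are its subunits, the chaperones that build it and a few genes with similar symbols. They were chosen by symbol, as the letters Psma, Psmb, Psmc, Psmd, Psme or Psmg followed by a digit, and by a minimum of 100 unique molecular identifiers (UMIs, which tag single captured transcripts) over all libraries in barcodes that passed the cell filter. Of 33696 genes in the tables, 50 symbols matched and 49 passed that minimum, with Psmb11, a subunit of the thymus, left out. The 49 genes comprised 15 core genes, 3 immunoproteasome genes, 21 regulatory genes, 7 assembly genes and 3 others that are no subunits.

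The core particle is a barrel of stacked rings, in which alpha subunits form the gates and beta subunits hold the cutting sites. A regulatory particle caps the barrel, recognises proteins tagged with ubiquitin, unfolds them with its ring of ATPases and feeds them in. In the immunoproteasome, subunits known from other work to be induced by interferon replace the catalytic beta subunits, and the peptides it cuts are loaded on MHC class I molecules. Core particles also degrade oxidised proteins, and ozone, the gas breathed in these experiments, is an oxidant that meets alveolar macrophages, the phagocytes that live on the surface of the lung's air sacs.

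Cells were washed from the right lungs of wild-type C57BL/6J mice aged 12 weeks that had been exposed for 3 hours to ozone at 1 ppm or 1.5 ppm, or to filtered air, and lavaged 22 to 24 hours after the exposure ended. Each group was a single droplet single-cell library made from the pooled cells of 3 to 4 mice, so the mice of a pool cannot be told apart, and no test between groups is possible. All intervals below are 95% intervals of counting error and do not cover the spread between mice or library preparations. Both ozone libraries were compared with the same air library, so their values are given side by side and are not independent.

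The filter kept 3479 air, 2241 1 ppm and 6577 1.5 ppm barcodes, of which 3312, 2133 and 5655 fell in clusters with the markers of alveolar macrophages. The deposited libraries held 59359742, 42825676 and 95403078 UMIs for air, 1 ppm and 1.5 ppm. Unless another cell class is named, levels are parts per 1e6 (CPM) of the summed UMIs of these alveolar-macrophage-like cells. All 11 alveolar macrophage markers were detected in them, with a summed level of 10750 to 14806 CPM over the libraries. The 8 neutrophil markers summed to 51.3 to 58.1 CPM and the 9 T cell markers to 0.347 to 0.764 CPM, with Cd8a at 0. Before the filter the median mitochondrial share was 5.20% in air, 4.65% at 1 ppm and 2.33% at 1.5 ppm, so this sign of RNA quality moved with dose. Between 3 and 13 kept barcodes of each library also occurred in another library.

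Most proteasome genes were higher in both ozone libraries than in air. All 49 genes together had a summed level of 3817 CPM in air, 4159 CPM at 1 ppm and 4786 CPM at 1.5 ppm. Core genes, which make the barrel, had summed levels of 1673 CPM in air, 1895 CPM at 1 ppm and 2345 CPM at 1.5 ppm. The assembly chaperones summed to 165.9, 181.1 and 231.6 CPM in the same order. Core and assembly were thus the groups furthest above air at 1.5 ppm, by 1.40-fold (1.39 to 1.41) for core and 1.40-fold (1.36 to 1.43) for assembly. The immunoproteasome genes summed to 178.2 CPM in air, 207.9 CPM at 1 ppm and 227.0 CPM at 1.5 ppm, which put 1.5 ppm above air by 1.27-fold (1.24 to 1.31). The regulatory genes moved least, with 1726 CPM in air, 1808 CPM at 1 ppm and 1911 CPM at 1.5 ppm, or 1.11-fold (1.10 to 1.12). At 1 ppm the order of the groups was another: the immunoproteasome ratio over air was 1.17 (1.13 to 1.20), against 1.13 (1.12 to 1.14) for core, 1.09 (1.06 to 1.13) for assembly and 1.05 (1.04 to 1.06) for the regulatory genes.

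Gene by gene, the difference was small and went mostly one way. With 1 library a group, a gene was counted by size alone, at 25% or more above the other library, or 20% or more below it. At 1.5 ppm, 25 of 49 genes were at least 25% above air, against 21.7% of all 12876 genes measured in these cells, and 1 gene, Psme2b, was as far below, against 17.9%. By group the 25 were 11 of 15 core genes, 2 of 3 immunoproteasome genes, 5 of 21 regulatory genes, 6 of 7 assembly genes and 1 of 3 others. At 1 ppm, 3 of 49 genes (Psmd8, Psme1 and Psmg1) were that much higher, against 8.42% of all genes, and again Psme2b was lower, against 11.0%. The share at 1 ppm was thus no larger than the background, although 41 of the 49 genes lay above 0 on the log2 scale, against 41.8% of all genes. The median log2 ratio of the 49 genes was 0.14 at 1 ppm and 0.34 at 1.5 ppm, where the medians of all genes were -0.05 and -0.04. Among genes of at least 50 CPM in either library, 18 of 35 proteasome genes were 25% or more above air at 1.5 ppm, against 18.2% of all such genes, and 2 of 32 at 1 ppm, against 5.29%. Between the doses, 14 of 49 genes were at least 25% higher at 1.5 ppm than at 1 ppm, against 20.5% of all genes.

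Transcript length moved with these values. Proteasome transcripts are short, with a median longest annotated transcript of 1440 bases against 2898 bases for all genes, and genes with short transcripts were higher at both doses as a class. Among genes under 1539 bases, 47.2% were at least 25% higher at 1.5 ppm than in air, and 18 of the 25 proteasome genes of that length were. Among longer genes the share was 14.9%, and 7 of 24 proteasome genes reached it. At 1 ppm the shares were 20.3% of short genes and 5.18% of longer ones, and 2 of 25 and 1 of 24 proteasome genes. The median log2 ratio at 1.5 ppm was 0.52 for the short proteasome genes, where all short genes had 0.29, and 0.15 for the longer proteasome genes, where all longer genes had -0.10. The core genes were the shortest, at a median of 1165 bases, and the regulatory genes the longest, at 1819 bases, so the order of the groups at 1.5 ppm also follows length. With each gene centred on genes of like transcript length, 14 of 49 genes in place of 25 were at least 25% higher at 1.5 ppm, against 20.1% of all genes centred likewise, and the log2 ratio was 0.32 for core, 0.24 for the immunoproteasome, 0.13 for regulatory and 0.31 for assembly genes. In cells of 2.5 to 4% mitochondrial UMIs alone the count was 16, against 18.7% of all genes in those cells, and the log2 ratio was 0.31 for core, 0.19 for the immunoproteasome, 0.07 for regulatory and 0.36 for assembly genes.

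**Figure D1:**
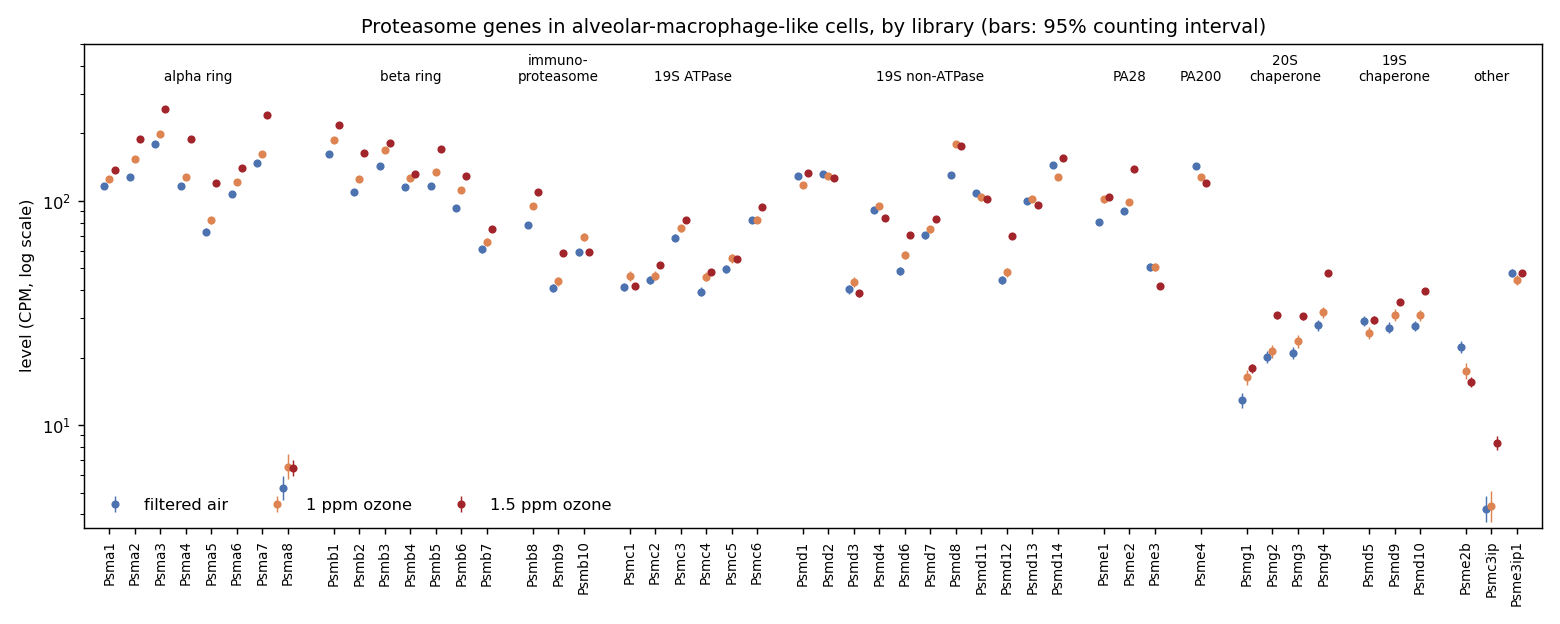
Level of each of the 49 proteasome genes (CPM, log axis) in alveolar-macrophage-like cells of the filtered air, 1 ppm and 1.5 ppm libraries, with 95% counting intervals as bars. Most alpha and beta ring genes and the chaperone genes sit highest at 1.5 ppm, while the ATPases of the regulatory particle lie close together.

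Among the alpha ring genes, 3 stood more than 1.5-fold above air at 1.5 ppm, a size reached by 8 of all 49 genes and by 11.5% of all genes measured. Psma7 had 147.6 CPM in air, 161.6 CPM at 1 ppm and 241.1 CPM at 1.5 ppm. Psma5 had 73.0, 81.9 and 119.5 CPM in that order, and Psma4 had 116.0, 128.3 and 189.1 CPM. In each of the 3 the step lay between 1 and 1.5 ppm: the ratio over air was 1.09 to 1.12 at 1 ppm and 1.63 to 1.64 at 1.5 ppm. Psma3 had the highest level of the core genes, at 179.7, 198.7 and 255.7 CPM in air, at 1 ppm and at 1.5 ppm. The smallest ratio of the alpha subunits was that of Psma1, with 116.6, 125.6 and 137.0 CPM, a ratio of 1.18 (1.14 to 1.21) for 1.5 ppm over air. Psma8, known as the testis counterpart of Psma7, had a low level, with 5.27 CPM in air and 6.54 and 6.47 CPM in the ozone libraries.

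The beta ring genes had summed levels of 799.3 CPM in air, 917.9 CPM at 1 ppm and 1067 CPM at 1.5 ppm, against 873.4, 977.4 and 1278 CPM for the alpha ring. Psmb4, which carries no cutting site, differed least among all core genes, with 114.7 CPM in air, 126.1 CPM at 1 ppm and 132.2 CPM at 1.5 ppm, or 1.15-fold (1.12 to 1.19) over air. All 15 core genes were above air at both doses, with log2 ratios of 0.11 to 0.31 at 1 ppm and 0.20 to 0.71 at 1.5 ppm. Of all genes, 41.8% were above air at 1 ppm and 45.1% at 1.5 ppm. Psmb3, a structural beta subunit, was the only core gene that any alternative put below air, and its log2 ratio at 1.5 ppm was 0.34 as summed and -0.06 after centring by transcript length.

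**Figure D2:**
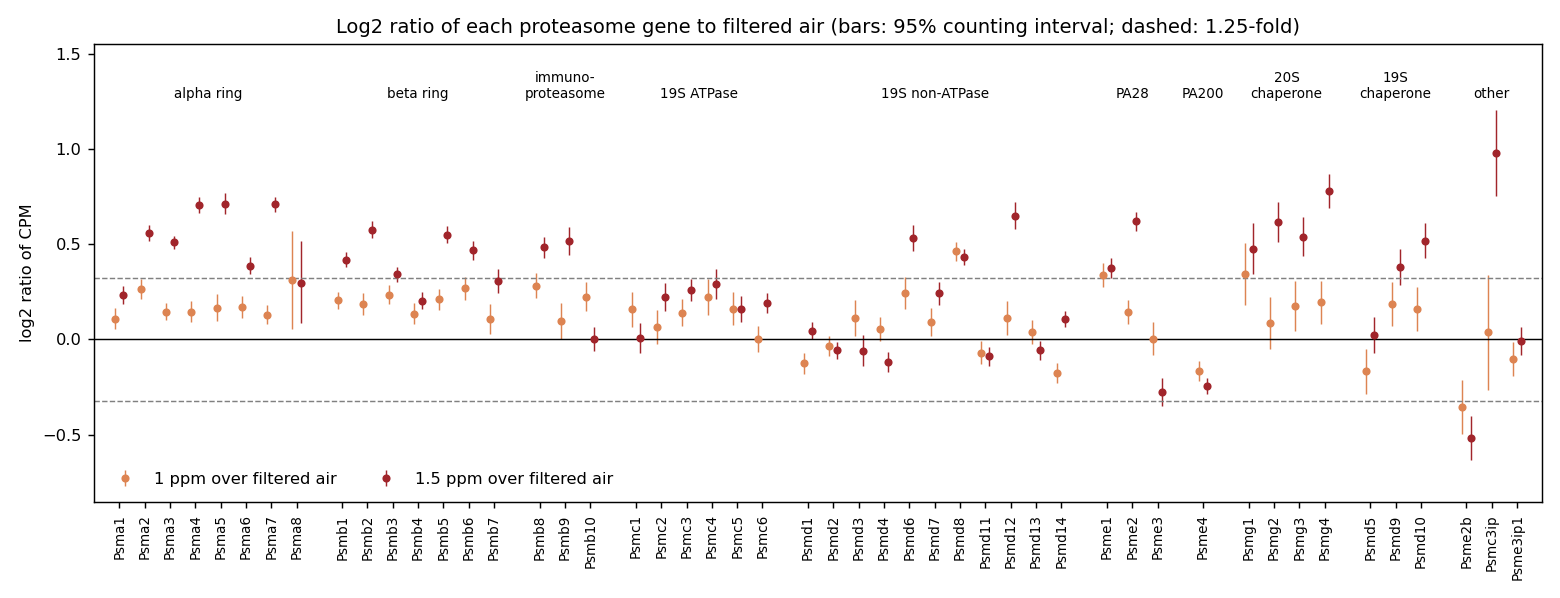
Log2 ratio of each proteasome gene to filtered air at 1 ppm and at 1.5 ppm in alveolar-macrophage-like cells, with 95% counting intervals; the dashed lines mark 25% above and 20% below air. At 1.5 ppm 11 of 15 core genes and 6 of 7 assembly genes lie above the upper line, against 5 of 21 regulatory genes and 21.7% of all genes.

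The 3 catalytic beta subunits, each with its own cleavage preference, can be compared with the inducible subunits that take their places: Psmb5 with Psmb8, Psmb6 with Psmb9 and Psmb7 with Psmb10. The promoters of 2 of these pairs are shown because their genes were called at 1.5 ppm and hold different motifs by letter search in the bases printed. These are the 150 bases before the RefSeq start site (build GRCm38.p6, gene strand, 5′ to 3′), with the matched letters in capitals.
Psmb5, chr14:54617996-54618145, minus strand: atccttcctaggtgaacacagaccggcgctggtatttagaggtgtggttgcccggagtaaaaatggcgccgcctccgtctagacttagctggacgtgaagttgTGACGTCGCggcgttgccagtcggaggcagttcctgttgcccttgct
Psmb8, chr17:34198045-34198194, plus strand: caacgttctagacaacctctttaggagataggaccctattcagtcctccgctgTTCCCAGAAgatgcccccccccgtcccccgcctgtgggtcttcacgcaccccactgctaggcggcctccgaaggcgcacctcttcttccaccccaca
Psmb6, chr11:70525207-70525356, plus strand: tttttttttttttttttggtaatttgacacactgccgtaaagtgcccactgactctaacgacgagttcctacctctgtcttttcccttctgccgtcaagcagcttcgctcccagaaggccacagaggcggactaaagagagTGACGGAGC
Psmb9, chr17:34187331-34187480, minus strand: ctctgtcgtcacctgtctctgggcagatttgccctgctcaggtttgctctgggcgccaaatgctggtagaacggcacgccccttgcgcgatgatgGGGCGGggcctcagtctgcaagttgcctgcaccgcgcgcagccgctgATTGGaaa
In Psmb5 and Psmb6 the capitals mark the core of the antioxidant response element, which is the site of stress factors of the NRF family, starting at positions -47 and -9 from the start site. In Psmb8 they mark a GAS site, a motif known from interferon gamma responses, at -97. In Psmb9 they mark a GC box at -55 and, on the other strand, an NF-Y box at -8. Psmb6 also has a GC box, at -182, which lies outside the bases printed, so this pair shares that motif.

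Across the family, most motifs occurred about as often as in other promoters. Promoters of 300 bases, 250 before and 50 after the start, were found for 41 of the 49 genes and for 27025 genes in all. Both strands were searched, each motif was counted on its own, and matches of different motifs may overlap. The antioxidant response element core (TGACNNNGC) occurred in 6 of the 41 genes, or 14.6%, against 14.0% of all genes. The GC box (GGGCGG) occurred in 24, or 58.5%, against 38.2%, and the core of the interferon-stimulated response element (GAAA, any 2 bases, GAAA) in 5, or 12.2%, against 3.99%. Those 5 were Psmb3, Psmd4, Psmd9, Psme1 and Psmg4, with 0 of the 3 immunoproteasome genes among them. The NF-Y box (CCAAT) was in 36.6% against 41.1% of all genes, the GAS site (TTCNNNGAA) in 7.32% against 9.55%, and the NF-kappa B motif (GGGA, any 4 bases, CC) in 29.3% against 22.9%. A match in letters is a description and shows no binding.

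All 3 constitutive catalytic genes were higher with dose. Psmb5, the chymotrypsin-like subunit, had 115.9 CPM in air, 134.1 CPM at 1 ppm and 169.5 CPM at 1.5 ppm, so the high dose stood 1.46-fold (1.42 to 1.51) above air. Psmb6, the caspase-like subunit, had 92.8, 111.8 and 128.4 CPM, a ratio of 1.38 (1.34 to 1.43). Psmb7, the trypsin-like subunit, had 60.7, 65.3 and 74.99 CPM and stayed just under the call size, at 1.24 (1.18 to 1.29). The counting intervals of the 3 libraries did not overlap for Psmb5 and Psmb6, while those of 1 ppm and air overlapped for Psmb7. After centring by transcript length the log2 ratio at 1.5 ppm was 0.15 for Psmb5, in place of 0.55. It was 0.07 for Psmb6, in place of 0.47, and 0.10 for Psmb7, in place of 0.30, so all 3 were then under the call size.

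The inducible genes split at the high dose. Psmb8 had 78.2 CPM in air, 95.1 CPM at 1 ppm and 109.3 CPM at 1.5 ppm, and Psmb9 had 40.9, 43.8 and 58.5 CPM, so both were highest at 1.5 ppm, at ratios over air of 1.40 (1.35 to 1.45) and 1.43 (1.36 to 1.51). Psmb10 had 59.1 CPM in air, 69.1 CPM at 1 ppm and 59.2 CPM at 1.5 ppm, so it was highest at 1 ppm and at the air level at 1.5 ppm, with a ratio of 1.00 (0.957 to 1.05).

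The inducible share moved little for Psmb9 with Psmb6 and for Psmb8 with Psmb5, whose members were all higher in both ozone libraries than in air. In the third pair Psmb7 was higher at 1.5 ppm while Psmb10 was at the air level. UMI counts of different transcripts are not protein amounts, so the shares are compared between libraries and cell classes and not read as particle composition. The inducible share was 30.6% (29.5 to 31.7), 28.1% (27.0 to 29.3) and 31.3% (30.6 to 32.0) for Psmb9 with Psmb6 in air, at 1 ppm and at 1.5 ppm. For Psmb8 with Psmb5 it was 40.3%, 41.5% and 39.2% in the same order. The Psmb10 with Psmb7 pair moved most, at 49.3% (48.0 to 50.6), 51.4% (49.99 to 52.8) and 44.1% (43.2 to 45.0). Over the 3 pairs together the share was 39.8% in air, 40.1% at 1 ppm and 37.8% at 1.5 ppm. The Psmb10 difference was smaller under the treatments of the cells given next. Under the other cell filters tried, the Psmb10 share of each library stayed within its counting interval. Without cells that had 3 or more UMIs of G2 and M phase genes, a set that made up 40.0% of the class at 1.5 ppm and 29.1% in air, the Psmb10 share was 49.9% at 1.5 ppm, against 53.4% at 1 ppm and 50.8% in air. Those cells were also deeper, with a median of 19197 UMIs against 11122 in the other cells at 1.5 ppm, and with each cell of enough depth thinned to 3000 UMIs the share was 48.2% at 1.5 ppm and 51.3% in air.

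The genes of the regulatory group were on both sides of air, with 14 of 21 above and 7 below at 1.5 ppm, against 45.1% of all genes above. Of the 6 ATPase genes, which form the unfolding ring, none lay 25% above air at either dose. Of all genes, 8.42% did at 1 ppm and 21.7% at 1.5 ppm. The summed level of the 6 ATPase genes was 325.3 CPM in air, 351.9 CPM at 1 ppm and 372.7 CPM at 1.5 ppm. Psmc4 had the highest ratio at 1.5 ppm, with 39.3 CPM in air, 45.9 CPM at 1 ppm and 48.1 CPM at 1.5 ppm, or 1.22-fold (1.16 to 1.29). Psmc1 had the lowest, with 41.4, 46.2 and 41.7 CPM, and Psmc6 the highest level, with 82.2, 82.4 and 93.8 CPM. Psmc3 and Psmc5 lay between them, at 1.20-fold and 1.12-fold over air at 1.5 ppm. Some ATPase genes changed sides under an alternative, with log2 ratios at 1.5 ppm of -0.04 for Psmc5 after centring by transcript length and -0.12 for Psmc1 without the cells that had at least 3 UMIs of G2 and M phase genes, and Psmc2 came to -0.0049 in cells of 2.5 to 4% mitochondrial UMIs alone.

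Among the 11 genes of the particle's other subunits, 3 were at least 25% above air at 1.5 ppm, against 21.7% of all genes. Psmd12, a scaffold subunit of the lid, had 44.3 CPM in air, 47.9 CPM at 1 ppm and 69.5 CPM at 1.5 ppm, or 1.57-fold over air (1.49 to 1.65). Psmd6, another lid subunit, had 48.5, 57.5 and 70.1 CPM, a ratio of 1.44 (1.38 to 1.51). Psmd8, also of the lid and the highest of the 11 in mean level, differed already at 1 ppm, with 130.2 CPM in air, 179.4 CPM at 1 ppm and 176.0 CPM at 1.5 ppm. The remaining 8 subunits stayed under that size in either direction at both doses. Psmd2, a scaffold of the base, had 132.1, 129.0 and 127.0 CPM in air, at 1 ppm and at 1.5 ppm, and Psmd11, a lid subunit that also touches the barrel, had 108.5, 103.5 and 102.0 CPM. Psmd4, a ubiquitin receptor, had 91.2, 94.8 and 84.1 CPM, and Psmd3 and Psmd13 of the lid were also slightly below air at 1.5 ppm, with log2 ratios of -0.06 each. With genes centred on others of like level, these 5 lay above air at 1.5 ppm, at log2 ratios of 0.01 to 0.07, and TMM scaling (a trimmed mean over genes) put Psmd2 at 0.03 at 1 ppm. Psmd1, the base scaffold, and Psmd14, the deubiquitinase of the lid, were below air at 1 ppm, at log2 ratios of -0.12 and -0.18, and above it at 1.5 ppm, at 0.05 and 0.11. Leaving out cells with at least 3 UMIs of G2 and M phase genes put Psmd1 at -0.02 at 1.5 ppm.

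The alternative caps of the barrel went in opposite directions. Psme1 and Psme2 encode the PA28 ring that works with the immunoproteasome. Psme1 had 80.2 CPM in air, 101.4 CPM at 1 ppm and 104.1 CPM at 1.5 ppm, and Psme2 had 89.7, 99.1 and 138.0 CPM, with ratios at 1.5 ppm of 1.30 (1.251 to 1.35) and 1.54 (1.49 to 1.59). Psme3, the nuclear member of that family, was lower at 1.5 ppm, with 50.6 CPM in air, 50.7 CPM at 1 ppm and 41.8 CPM at 1.5 ppm. Psme4, which encodes the PA200 cap, was below air at both doses, with 142.8 CPM in air, 127.3 CPM at 1 ppm and 120.6 CPM at 1.5 ppm, which is 0.845 of air (0.820 to 0.870). After centring by transcript length its log2 ratio at 1 ppm was 0.01 in place of -0.17, and that of Psme2 was -0.01 in place of 0.14. Psme3 and Psme4 are named after their values were seen. Psme2b, a near copy of Psme2, had 22.3, 17.4 and 15.6 CPM, and reads of the copies could be split between them in counting, so both are uncertain.

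All 4 Psmg chaperones of the barrel were above air at both doses, although Psmg2 at 1 ppm lay at -0.01 on the log2 scale after centring by transcript length. Psmg4 was the furthest, with 27.9 CPM in air, 31.9 CPM at 1 ppm and 47.8 CPM at 1.5 ppm, or 1.71-fold over air (1.61 to 1.82). Psmg2 had 20.1, 21.3 and 30.9 CPM, Psmg3 had 21.0, 23.7 and 30.6 CPM, and Psmg1 had 12.9, 16.4 and 17.9 CPM. These genes encode the PAC chaperones, which guide the alpha ring together before beta subunits are added, and Psmg1 alone among them lay 25% above air at 1 ppm. The chaperones of the regulatory particle's base were less uniform. Psmd10, also known as gankyrin, had 27.7 CPM in air, 30.9 CPM at 1 ppm and 39.6 CPM at 1.5 ppm, and Psmd9 had 27.2, 31.0 and 35.4 CPM. Psmd5 had 29.0, 25.8 and 29.5 CPM and was at the air level at 1.5 ppm. The 3 genes that share letters but encode no subunit were Psme2b, Psmc3ip, a meiotic recombination factor with 4.24 CPM in air, 4.35 CPM at 1 ppm and 8.35 CPM at 1.5 ppm, and Psme3ip1, with 47.8, 44.5 and 47.5 CPM.

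Partners of the proteasome with other symbols were mixed. Of 19 measured partners, 3 were at least 25% above air at 1.5 ppm and 1 at least 20% below, against 21.7% and 17.9% of all genes, and none at 1 ppm, against 8.42% and 11.0%, with medians of -0.02 and -0.03 on the log2 scale. Pomp, the maturation factor that acts with the PAC chaperones, had 177.4 CPM in air, 202.7 CPM at 1 ppm and 278.0 CPM at 1.5 ppm. Sem1, a small lid subunit, had 505.9, 603.2 and 652.2 CPM, and Txnl1, a thioredoxin bound to the regulatory particle, had 89.4, 89.7 and 126.8 CPM. Psmf1, an inhibitor of the core particle, was lower, with 17.0, 15.7 and 13.4 CPM, and Ubqln4, a shuttle factor, had 20.2, 19.4 and 16.3 CPM. Ubb, a polyubiquitin gene, had 571.0 CPM in air, 635.1 CPM at 1 ppm and 815.3 CPM at 1.5 ppm.

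Among 14 genes that load and show the peptides on class I molecules, 10 lay below air at 1.5 ppm, against 7073 of all 12876 genes. In all 1 was at least 25% higher, against 21.7% of all genes, and 4 were at least 20% lower, against 17.9%. Their median log2 ratio was -0.15, where all genes had -0.04 and genes of 81.05 to 152.3 CPM and those above 152.3 CPM had -0.13 each. Tapbp, which holds empty class I molecules at the peptide transporter, had 157.7 CPM in air, 150.7 CPM at 1 ppm and 111.5 CPM at 1.5 ppm. The class I chain H2-K1 had 469.8, 426.1 and 343.3 CPM, and Tap2, a chain of that transporter, had 41.1, 40.8 and 30.2 CPM. The gene that was higher was the chaperone Calr, with 380.3, 410.0 and 497.5 CPM. The median log2 ratio at 1.5 ppm was -0.18 for 12 genes of the type I interferon response, 0.79 for 15 heat shock genes and 1.01 for 22 G2 and M phase genes.

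The order of the libraries was the same in cells with many and with few UMIs of G2 and M phase genes, a split by raw counts that follows depth. In cells with 3 or more such UMIs, which had a median of 17577 UMIs in air against 12708 in the other cells, the core level was 1805 CPM in air, 2013 CPM at 1 ppm and 2465 CPM at 1.5 ppm. In the other cells it was 1596, 1820 and 2195 CPM in that order. Per cell, the median of the 46 subunit and assembly genes was 35.2 UMIs per 10000 in air, 38.9 at 1 ppm and 43.9 at 1.5 ppm. The cells overlapped widely, since the central 90% of 1.5 ppm cells ran between 21.3 and 68.2 and that of air cells between 19.7 and 56.0.

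**Figure D3:**
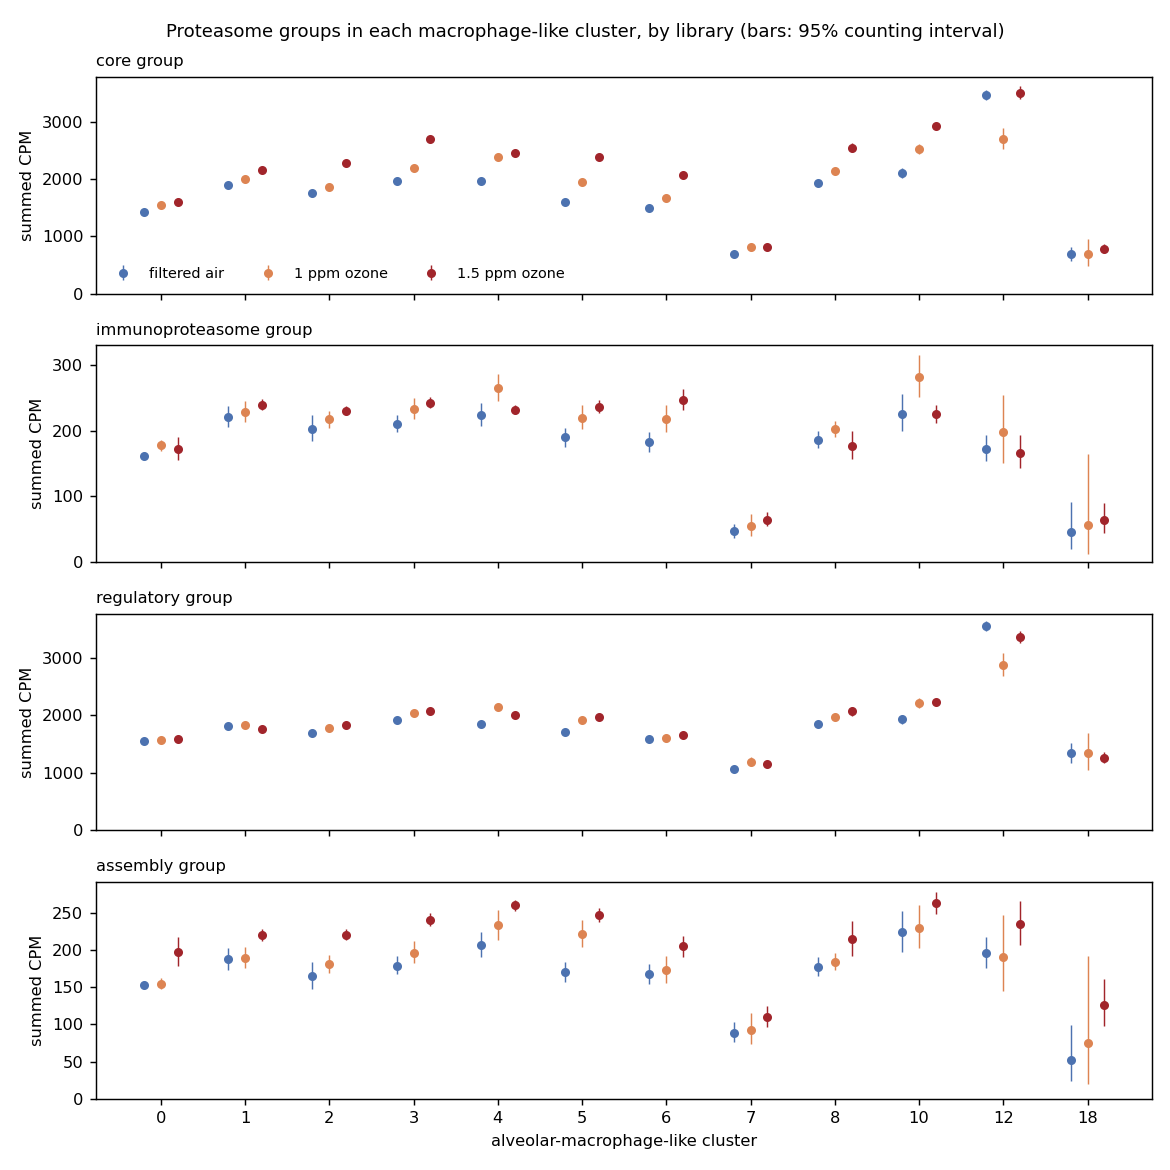
Summed level (CPM) of the core, immunoproteasome, regulatory and assembly groups in each of the 12 alveolar-macrophage-like clusters, for the filtered air, 1 ppm and 1.5 ppm libraries, with 95% counting intervals. The core level is above air at 1.5 ppm in all 12 clusters, clusters 7 and 18 lie lowest and cluster 12 highest.

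Within clusters, core and assembly genes kept their direction. The core sum was higher at 1.5 ppm than in air in 12 of 12 alveolar-macrophage-like clusters, with log2 ratios of 0.02 to 0.58, and the assembly sum in 12 of 12. The immunoproteasome and regulatory sums were each higher in 9 of 12. At 1 ppm the core, regulatory and assembly sums were above air in 11 of 12 clusters, the exception being cluster 12, and the immunoproteasome sum in 12 of 12. Cluster 18, with the highest assembly log2 ratios of 0.52 at 1 ppm and 1.27 at 1.5 ppm, was small. It held 12 cells in air, 3 at 1 ppm and 55 at 1.5 ppm. Clusters are defined by genes that may differ between libraries, and the clusters are not replicates.

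Cluster 12, led by the oxidative stress genes Slc7a11 and Hmox1, had the highest core and regulatory levels of the 12 clusters in every library. Its core sum was 3473 CPM in 93 air cells, 2707 CPM in 14 cells at 1 ppm and 3513 CPM in 74 cells at 1.5 ppm. Its regulatory sum was 3542, 2878 and 3358 CPM in that order. The immunoproteasome did not share this, with 172.9, 197.4 and 166.7 CPM, and over the 3 libraries the inducible share of the 3 pairs was 20.7% (19.1 to 22.3) in cluster 12, against 38.7% (38.4 to 39.1) in the whole class. Clusters 7 and 18, with a median of over 7% mitochondrial UMIs, had the lowest core levels, at 773 and 752 CPM over the libraries.

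Cells were then ranked by Hmox1, which encodes a haem-degrading stress enzyme, and Slc7a11, which encodes a cystine carrier, as a share of each cell's UMIs, with limits chosen after cluster 12 had been seen. At 1.5 ppm the core sum was 2266, 2605, 2790 and 3599 CPM in cells with under 0.02%, 0.02 to 0.1%, 0.1 to 0.5% and at least 0.5% of UMIs from these 2 genes. In air it was 1568, 1726, 2383 and 3558 CPM over the same bins. In both libraries the core sum was higher in each bin than in the one below it, and the counting intervals of the 1.5 ppm and air libraries were apart in the lowest bin and overlapped in the highest one. The regulatory sum in the highest bin was 3629 CPM at 1.5 ppm, against 3819 CPM in air. At 1 ppm the highest bin held only 12 cells, with a core sum of 2521 CPM.

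**Figure D4:**
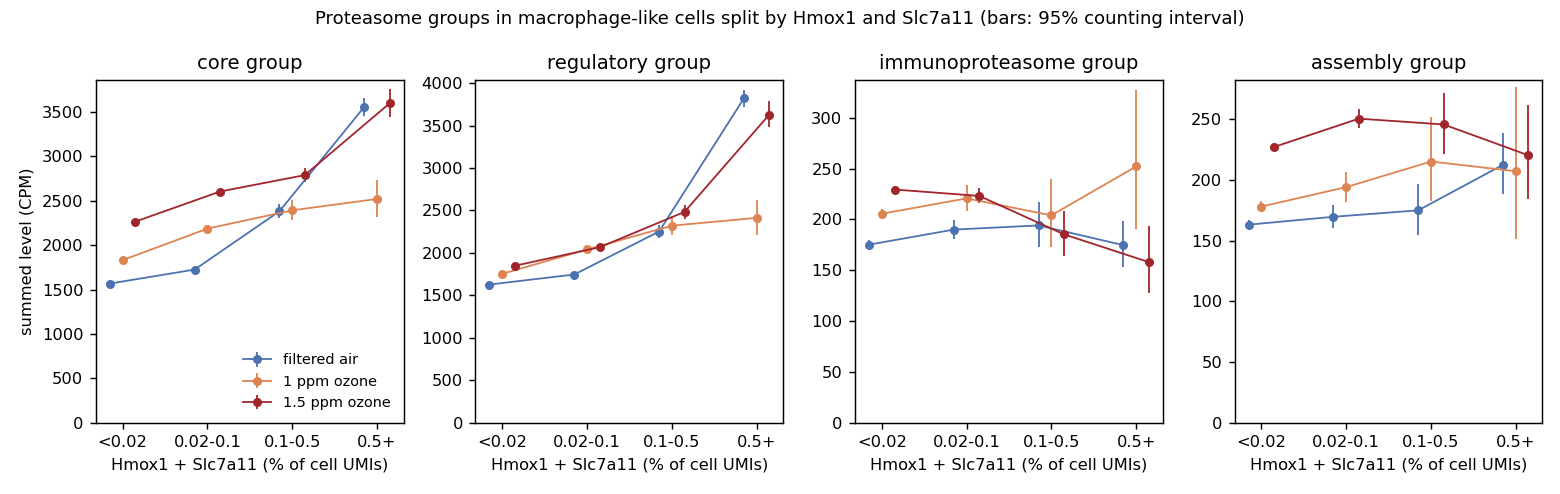
Summed level (CPM) of the 4 proteasome groups in alveolar-macrophage-like cells split by the percent of UMIs from Hmox1 and Slc7a11, for the filtered air, 1 ppm and 1.5 ppm libraries, with 95% counting intervals. Core and regulatory sums climb with the share in all 3 libraries, to 3599 CPM core at 1.5 ppm and 3558 CPM in air, while the immunoproteasome sum in the highest bin is 158.0 CPM at 1.5 ppm and 174.7 CPM in air.

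In air, 33 of 49 proteasome genes were at least 1.5-fold higher in the cells of the highest bin than in the other cells, against 16.7% of all genes. The count was 13 of 49 at 1 ppm, against 36.1%, and 22 of 49 at 1.5 ppm, against 24.2%. In each of the 3 libraries 9 of 49 genes passed, against 9.76% of all genes: Psma3, Psma5, Psma7 and Psmb4 of the core, and Psmc2, Psmc6, Psmd1, Psmd2 and Psmd12 of the regulatory particle. Psmd1, which hardly differed between libraries, was among the clearest, with 465.6 CPM in the high cells and 130.6 CPM in the other cells at 1.5 ppm, and 474.5 CPM in the high cells and 118.8 CPM in the other cells of the air library. No immunoproteasome or assembly gene passed in all libraries. With 1 UMI added to each sum, genes of low level could pass in the small highest bin without a UMI there. At 1 ppm Psmc3ip had 0 UMIs in the high cells and 4.38 CPM in the others, yet its log2 ratio was 0.03. The shares of all genes can include such passes, so they are no even background for the proteasome counts. The highest bin held 44 cells at 1.5 ppm with a median of 2.35% mitochondrial UMIs and 13242 UMIs, and 71 air cells with 3.64% and 16814 UMIs. The cells of a bin come from a single library, so these counts describe that library.

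The other cell classes of the lavage were small. Dendritic-like cells of the migratory kind, professional antigen presenters, had the highest inducible share, at 71.4% (68.4 to 74.3) of the UMIs of the 3 pairs in 95 cells over all libraries. By library it was 64.8% in air, 78.1% at 1 ppm and 71.0% at 1.5 ppm. Psmb8 made up 84.0% of its pair there, against 39.9% in alveolar-macrophage-like cells. The immunoproteasome sum was 665.8 CPM in migratory dendritic-like cells, against 209.2 CPM in alveolar-macrophage-like cells. The PA28 genes stood at least as far apart, with Psme1 at 389.9 CPM and Psme2 at 571.8 CPM in migratory dendritic-like cells, against 96.8 CPM for Psme1 and 116.2 CPM for Psme2 in alveolar-macrophage-like cells. T cell-like cells had a share of 53.9% (48.1 to 59.5), interstitial macrophage and monocyte-like cells 46.7% (43.8 to 49.6), and neutrophil-like cells 35.9% (25.3 to 47.6). Airway epithelial-like cells had the lowest share, at 14.0% (11.5 to 16.8) in 145 cells. Their core level was 2373 CPM in 25 air cells, 2066 CPM in 22 cells at 1 ppm and 3761 CPM in 98 cells at 1.5 ppm. The median depth was 2263 UMIs in airway epithelial-like cells, 3692 in T cell-like cells and 13946 in alveolar-macrophage-like cells, and the part of free RNA in the shares of these shallow cells was not tested.

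**Figure D5:**
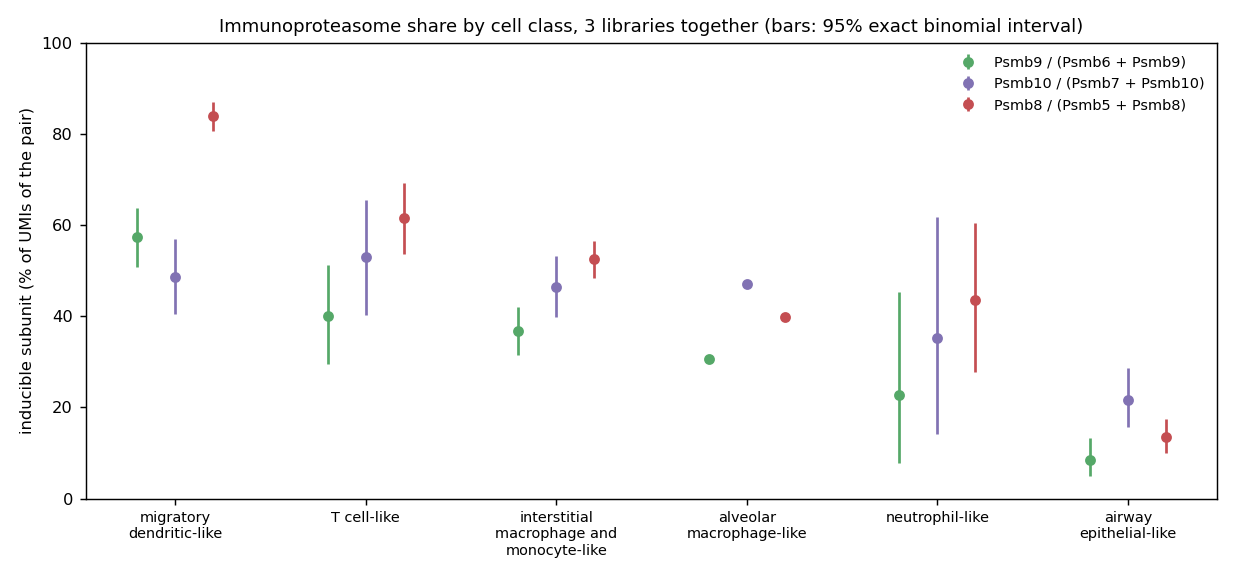
Inducible share (percent of UMIs) of each catalytic pair by cell class over the 3 libraries, with exact binomial 95% intervals. Migratory dendritic-like cells lie highest for Psmb8 with Psmb5, at 84.0%, and airway epithelial-like cells lowest for all 3 pairs.

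Outside the macrophage class the core sum was higher at 1.5 ppm than in air in the other named classes with enough cells to give a ratio. The log2 ratio was 0.64 (0.53 to 0.75) in interstitial macrophage and monocyte-like cells, 0.54 (0.38 to 0.70) in migratory dendritic-like cells, 0.66 (0.36 to 0.98) in T cell-like cells and 0.66 (0.45 to 0.89) in airway epithelial-like cells. In cluster 9, an unnamed cluster with a median of 1068 UMIs a cell, it was -0.18 (-0.43 to 0.08). The immunoproteasome sum was also higher in migratory dendritic-like cells, at 0.50 (0.21 to 0.80), and in T cell-like cells, at 0.87 (0.08 to 1.78), which rests on 140 UMIs at 1.5 ppm and 14 in air. Its interval crossed 0 in interstitial macrophage and monocyte-like cells, at 0.18 (-0.11 to 0.46), and in airway epithelial-like cells, at -0.45 (-1.44 to 0.73).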

How the data were processed

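Single-cell libraries were made with a 10x 3′ kit, per the labels' protocols. The deposited values are whole-number UMI counts for each gene in each barcode. Per the file headers they came from Cell Ranger 8.0.0, and per the submitters' processing notes from the genome build GRCm39 (mm39). The treatment of intronic reads is not stated in the sources used here. Library depth was 42825676 to 95403078 UMIs.

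Barcodes of at least 500 UMIs, at least 300 genes and at most 10% mitochondrial UMIs were kept. No doublet caller was run, so doublets remain. Cells were scaled to 10000 UMIs, log transformed, reduced to 30 components of 2000 variable genes and clustered by the Leiden method (resolution 1.0, 15 neighbours) into 19 clusters (scanpy 1.11.5, leidenalg 0.10.2, igraph 0.11.9, scikit-learn 1.9.0, scipy 1.17.1, numpy 2.4.6, pandas 2.3.3, Python 3.11.15, matplotlib 3.10.9). A cluster was named from at least 3 markers seen in at least 25% of its cells, by a scoring set with the data known.

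UMIs of alveolar-macrophage-like cells were summed per library and given as CPM. Log2 ratios and size calls of single genes add 1 UMI to each sum, while ratios with intervals and ratios of group sums add none. Genes needed 100 UMIs. Intervals are exact Poisson, conditional or Clopper-Pearson intervals and cover counting error only. The calculation of ratios and intervals was checked on simulated counts with known folds. Scaling by TMM (edgeR 4.0.16, R 4.3.3) and by median of ratios were alternatives, with other cell filters, thinning to 3000 UMIs and centring by level or transcript length. Transcript lengths came from a GRCm38 annotation by Ensembl identifier, for 49 of 49 proteasome genes and 12567 of 12876 genes in all.

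The genes named were the catalytic and inducible subunits, Psme1, Psme2, the assembly genes, the extreme and highest genes of each subgroup, those against their group's direction, those of 1.5-fold or more, and up to 5 of each partner list. The proteasome genes, groups and lists were chosen with earlier results of these data known. The alternatives that leave out cluster 12 or clusters 7 and 18 were added after seeing the data.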

Additional observations from a re-analysis of the deposited data

Results flagged for a closer look

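In airway epithelial-like cells the regulatory genes were lower at 1 ppm than in air, at a log2 ratio of sums of -0.58 (-0.98 to -0.20), where the same genes were higher in alveolar-macrophage-like cells, at 0.07 (0.05 to 0.08). The difference in direction between the classes is what drew attention to it. The ratio rests on 22 cells with 83 UMIs of these genes at 1 ppm, against 25 cells with 173 UMIs in air, and the difference between the classes was not tested. At 1.5 ppm the ratio in airway epithelial-like cells was 0.29 (0.07 to 0.52).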

How the results depend on the processing

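With 1 library a group no replicate could be left out, and no gene has a replicate check. No paired analysis was possible because each group is 1 library. The log2 ratio of sums kept its sign for all 4 groups at both doses under all 14 alternatives tried. Values outside the main counting interval follow, as log2 ratios over air unless said otherwise. At 1 ppm, core was 0.24 without cells of over 1% Hmox1, Slc7a11, Mt1 and Mt2 UMIs, 0.23 without cluster 12, 0.16 without clusters 7 and 18, 0.15 after thinning to 3000 UMIs, 0.25 by TMM, 0.24 by median of ratios, 0.10 centred by transcript length and 0.26 centred by level. The immunoproteasome was 0.29, 0.28, 0.16 and 0.30 under the last 4, and assembly 0.19, 0.18 and 0.0689 under TMM, median of ratios and length centring. Regulatory was 0.12 without the stress-high cells, 0.12 without cluster 12, 0.0861 thinned, 0.13 by TMM, 0.12 by median of ratios and 0.15 centred by level. At 1.5 ppm, core was 0.46 with a stricter cell filter, 0.46 without cells of 3 or more G2 and M phase UMIs, 0.31 in cells of 2.5 to 4% mitochondrial UMIs, 0.55 without stress-high cells, 0.54 without cluster 12, 0.43 thinned, 0.44 as a mean over cells, 0.54 by TMM, 0.53 by median of ratios, 0.32 by length and 0.62 by level centring. The immunoproteasome was 0.39 without G2 and M phase cells, 0.19 in the mitochondrial window, 0.40 by TMM, 0.39 by median of ratios, 0.24 by length and 0.46 by level. Regulatory was 0.13 with the stricter filter, 0.11 without G2 and M phase cells, 0.0668 in the window, 0.20 without stress-high cells, 0.19 without cluster 12, 0.12 thinned, 0.12 as a mean over cells, 0.20 by TMM, 0.19 by median of ratios, 0.13 by length and 0.26 by level. Assembly was 0.42 without G2 and M phase cells, 0.36 in the window, 0.43 as a mean over cells, 0.53 by TMM, 0.52 by median of ratios, 0.31 by length and 0.54 by level. The number of genes at least 25% above air was 7 at 1 ppm by TMM, 6 by median of ratios and 7 centred by level, in place of 3, and at 1.5 ppm 16 in the mitochondrial window and 14 by length, in place of 25. At 1.5-fold the numbers were 0 and 8. For inducible shares, Psmb10 with Psmb7 was 48.2% at 1.5 ppm and 51.3% in air after thinning, and 50.8% in air, 53.4% at 1 ppm and 49.9% at 1.5 ppm without G2 and M phase cells. Psmb8 with Psmb5 at 1.5 ppm was 40.8% thinned and 41.7% without G2 and M phase cells, and in air 41.8% without stress-high cells and 41.9% without cluster 12. Psmb9 with Psmb6 was 31.8% in air, 29.9% at 1 ppm and 32.6% at 1.5 ppm thinned, 32.1% at 1.5 ppm without G2 and M phase cells, and in air 32.0% without stress-high cells and 31.9% without cluster 12. Of the 98 single-gene ratios, 11 changed sign under length centring, 8 centred by level, 7 in the mitochondrial window and at most 5 under each other alternative. Among those at least 25% from air, the 1 that did was Psmb3 at 1.5 ppm, at -0.0614 under length centring, and the cause was not tested. TMM moved every log2 ratio by 0.07 at 1 ppm and 0.05 at 1.5 ppm. Depth limits the low genes Psma8 and Psmc3ip and the small classes most.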
